A study of Mus musculus with 6 samples.

Results

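Genes of the negative feedback on the ERK pathway were followed in TuBo mammary tumor cells with and without p140Cap. They were taken by symbol from the read counts per gene, as 4 MAP kinase phosphatases (Dusp1, Dusp4, Dusp5 and Dusp6), 3 Sprouty genes (Spry1, Spry2 and Spry4), 2 Spred genes (Spred1 and Spred2) and the ETS factor Etv5. All 10 were among the 21960 genes in the counts, and all 10 had enough reads to be tested. RNA-Seq was done on 3 mock and 3 p140Cap libraries, and the comparison asked how the transcriptome of TuBo cells differs once p140Cap, an adaptor protein encoded by Srcin1, is expressed.

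TuBo is a mouse mammary carcinoma line of the BALB/c-MMTV-NeuT model, in which the MMTV promoter drives activated rat HER2/Neu, so cells of both groups carry that oncogene. The labels give the mock cells as wt and the others as overexpressing p140Cap, and call both Balb-NeuT cell lines, while their treatment protocol names TuBo cells. Because the series title speaks of transgenic mice, the TuBo identity is a reading of these labels together with the paper's methods. p140Cap cells received a retrovirus (pBabe-puro) with p140Cap cDNA, were selected with puromycin and, following the paper's methods, are a pool of clones each grown from a single cell. No source used here says what the mock cells received. Nor is it said whether the replicates came from separate cultures, so every p-value here measures the spread between these libraries, which may be technical.

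ERK signaling runs from receptor tyrosine kinases through RAS, RAF and MEK to the kinases ERK1 and ERK2, which switch on a set of genes that in turn restrain the pathway. Dual-specificity phosphatases (DUSPs) remove the activating phosphates from MAP kinases, Sprouty and Spred proteins act further up, between the receptors and RAF, and ETV5 is a transcription factor whose gene is switched on by ERK. In mammary epithelium and in HER2-driven tumors the transcripts of these genes are widely read as a sign of ERK output, but transcript levels are not a measure of ERK phosphorylation, which was not analysed here.

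Mock libraries held between 33058719 and 75506562 reads and p140Cap libraries between 13770385 and 15364850, so each mock library was the deeper. Srcin1, read as a check of the labels, rose from 15.0 ± 1.96 to 2343 ± 153 CPM (normalized read count, the gene's reads scaled to the TMM-adjusted library size; mean ± SD, n = 3 in each group). The summed level of 8 mammary epithelial markers was 5371 to 5730 CPM in mock and 6388 to 6588 CPM in p140Cap cells. Of these, Krt19 had only 4, 1 and 1 reads in mock and 5, 3 and 1 in p140Cap libraries, too few for the test. Markers of other cells were low, with 0.353 to 0.48 against 0.341 to 0.593 CPM for 4 basal, 9.97 to 10.5 against 11.3 to 14.1 CPM for 7 fibroblast, 2.08 to 2.34 against 3.23 to 4.09 CPM for 6 myeloid and 0.21 to 0.478 against 0.477 to 0.734 CPM for 4 endothelial genes. Col1a2, Col3a1, Dcn and Lum of the fibroblast list and Ptprc, Adgre1 and Lyz2 of the myeloid list had 0 reads in every library, as did Kdr of the endothelial list. Of the tested markers of other cells, Col1a1, Cd68 and Pecam1 were higher in p140Cap cells (adjusted p under 0.05), and Pdgfra was not. Their log2 fold changes were 0.80, 0.83, 1.25 and 0.09 (edgeR adjusted p = 0.000244, 0.000119, 0.0133 and 0.499).

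Of the 10 feedback genes, 8 were higher in p140Cap cells, 2 were not called and 0 were lower (edgeR's quasi-likelihood test, adjusted p under 0.05). The 4 phosphatase genes and Etv5 rose by 0.42 to 0.71 on the log2 scale. Spry2, Spry4 and Spred2 rose by 0.12 to 0.21, whereas Spry1 and Spred1 lay within 0.03 of mock. Among all 11800 genes tested, 71.1% were called, 35.2% higher and 35.9% lower, so the number of members called in either direction was near the background, while their called changes all pointed up. CPM values of the groups did not overlap for 8 of the 10, beside 73.4% of all genes. The median log2 fold change of the 10 genes was 0.32, against -0.0015 over all genes tested. At an unadjusted p under 0.05, again 0 members were lower, and 0 were lower by DESeq2 or limma-voom. In bulk RNA, more transcript in each cell and more cells with the transcript cannot be told apart.

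**Figure D1:**
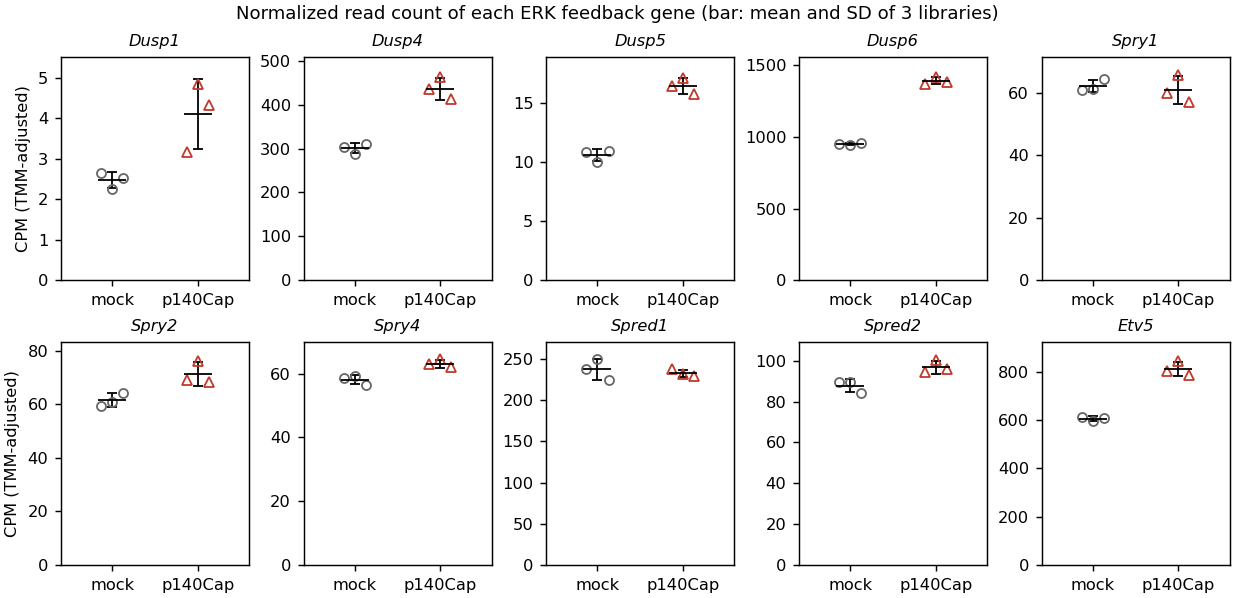
Normalized read count of each feedback gene (y axis, TMM-adjusted CPM from 0, 1 panel per gene) in the 3 mock libraries (circles) and 3 p140Cap libraries (triangles), with bars at the mean and SD. Groups are apart for the 4 Dusp genes, Etv5, Spry2, Spry4 and Spred2, and overlap for Spry1 and Spred1.

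Dusp6 (ENSMUSG00000019960; chr10:99263231-99267489 of GRCm38.p6, plus strand) encodes a cytoplasmic phosphatase that acts on ERK with high selectivity. Its normalized read count was 952, 943 and 958 CPM in mock libraries 1 to 3 and 1372, 1417 and 1381 CPM in p140Cap libraries 1 to 3. The 2 groups were far apart and the replicates tight, at 951 ± 7.47 and 1389.9 ± 23.9 CPM (SD, n = 3). Dusp6 rose by 0.55 on the log2 scale with an SE of 0.04 (edgeR, adjusted p = 1.23e-08), that is, 1.46-fold with a 95% interval of 1.37 to 1.56. Dusp6 had the most reads of the 10 genes, and its mock level was above that of 99.3% of the genes tested.

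Dusp4 (ENSMUSG00000031530; chr8:34807610-34819894, plus strand) encodes a nuclear phosphatase of ERK and other MAP kinases that is induced by ERK. It was read at 304, 288 and 309 CPM in mock cells and at 435, 462 and 412 CPM in p140Cap cells. No p140Cap library came near the mock range, and the group means were 300.2 ± 11.2 and 436 ± 25.1 CPM. Dusp4 rose by 0.54 on the log2 scale (SE 0.05, edgeR adjusted p = 1.06e-07), or 1.45-fold (1.35 to 1.57), almost the same size as for Dusp6.

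Dusp5 (ENSMUSG00000034765; chr19:53529145-53541809, plus strand), which encodes a nuclear phosphatase selective for ERK, was measured at a far lower level. Mock libraries gave 10.8, 9.98 and 10.9 CPM and p140Cap libraries 16.4, 17.1 and 15.7 CPM. Every p140Cap value was thus above every mock value, with means of 10.6 ± 0.509 and 16.4 ± 0.689 CPM. The log2 fold change was 0.63 (SE 0.08, edgeR adjusted p = 1.66e-06), or 1.55-fold (1.38 to 1.74). Genes of chromosome 19 as a whole went the other way, since 338 of the 424 tested there had a log2 fold change below 0 and their median log2 fold change was -0.34, where each other chromosome had a median between -0.07 and 0.06. Dusp5 lay above 94.6% of the chromosome 19 genes, and the part of the chromosome in its value was not tested.

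Dusp1 (ENSMUSG00000024190; chr17:26505591-26508472, minus strand) encodes an immediate early phosphatase that acts on p38 and JNK as well as ERK. It was the member with the fewest reads, 202, 90 and 84 in mock and 48, 71 and 59 in p140Cap libraries. Scaled to library size, this gave 2.64, 2.26 and 2.52 CPM in mock and 3.16, 4.84 and 4.33 CPM in p140Cap cells. The groups did not overlap, but p140Cap replicate 1 lay closer to the mock libraries than to the other p140Cap libraries, and the SD was 0.858 around a mean of 4.11 CPM, beside 0.193 around 2.47 CPM in mock. Dusp1 had the highest log2 fold change of the 10 genes, 0.71, and also the widest error (SE 0.16, edgeR adjusted p = 0.000787), for a 1.64-fold difference (1.3 to 2.07). These intervals of the 4 phosphatases overlap, so their order by fold change is not resolved.

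RefSeq promoters of GRCm38.p6 (250 bases before to 50 after the start of the gene, 300 in all) were found for 8 of the 10 members, with 9 entries because Etv5 has 2, and were searched on both strands for motifs of factors that ERK or stress kinases act on. These were the cAMP response element (CRE, TGACGTCA), the AP-1 site (TGANTCA) and the CArG box of serum response factor. Also searched were forms of the octamer of the repressor Capicua (TCAATGAA or TGAATGAA) and an ETS motif (CCGGAA). Other forms of the Capicua and ETS motifs were not searched. Dusp1 and Dusp5, the phosphatase genes with the largest and next largest log2 fold change, are printed 5′ to 3′ on the gene's strand with the motifs in capitals, and Dusp6 is printed as the most abundant member.
Dusp1 promoter (chr17:26508423-26508722): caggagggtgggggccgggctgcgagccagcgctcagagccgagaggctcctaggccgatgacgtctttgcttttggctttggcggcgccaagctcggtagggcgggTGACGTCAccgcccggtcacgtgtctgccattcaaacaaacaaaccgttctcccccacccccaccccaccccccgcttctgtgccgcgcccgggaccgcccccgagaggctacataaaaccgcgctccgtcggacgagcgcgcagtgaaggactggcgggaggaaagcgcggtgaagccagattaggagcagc
Dusp5 promoter (chr19:53528895-53529194): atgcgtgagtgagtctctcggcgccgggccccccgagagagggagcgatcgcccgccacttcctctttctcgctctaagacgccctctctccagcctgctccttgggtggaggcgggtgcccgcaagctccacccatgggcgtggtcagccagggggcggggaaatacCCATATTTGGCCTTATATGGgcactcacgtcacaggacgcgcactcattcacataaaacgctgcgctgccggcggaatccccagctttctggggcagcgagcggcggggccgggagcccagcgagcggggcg
Dusp6 promoter (chr10:99262981-99263280): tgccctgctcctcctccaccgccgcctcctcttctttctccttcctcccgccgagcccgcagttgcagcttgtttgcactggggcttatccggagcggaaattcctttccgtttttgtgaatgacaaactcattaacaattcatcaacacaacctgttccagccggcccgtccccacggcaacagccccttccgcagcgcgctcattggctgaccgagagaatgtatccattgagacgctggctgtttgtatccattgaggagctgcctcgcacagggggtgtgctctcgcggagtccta
Dusp1 held 1 CRE that begins 143 bases before the start, and 1.79% of 32851 mouse promoters of this length held one. Dusp5 held 2 CArG boxes end to end, 82 and 72 bases before the start, a motif found in 1.63% of all promoters. None of the 5 motifs was found in the Dusp6 window in the forms searched, which says only that these letters are not in it. AP-1 sites were found in 7.81% and the ETS motif CCGGAA in 14.9% of all promoters, and neither was found in these 3 windows. A match is a description of the sequence, since binding was not measured here.

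Etv5 (ENSMUSG00000013089; chr16:22381313-22439570, minus strand), an ETS factor of the PEA3 group whose transcript rises with ERK activity, was the second most abundant member. Its normalized read count was 613, 595 and 609 CPM in mock and 804, 843 and 787 CPM in p140Cap libraries. All p140Cap libraries were higher than all mock libraries, with means of 606 ± 9.60 and 811 ± 28.8 CPM. On the log2 scale the increase of Etv5 was 0.42 (SE 0.05, edgeR adjusted p = 4.99e-07), or 1.34-fold (1.25 to 1.43). Etv4 and Etv1, the other factors of that group, were fixed in the list of further ERK output genes and are given with it.

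Spry2 (ENSMUSG00000022114; chr14:105891947-105896819, minus strand), one of the Sprouty proteins that dampen receptor tyrosine kinase signaling on the way to RAS and RAF, rose slightly. It was read at 59.3, 61.0 and 64.5 CPM in mock and at 69.0, 76.4 and 68.5 CPM in p140Cap cells. The groups were apart by a narrow margin, with means of 61.6 ± 2.63 and 71.3 ± 4.45 CPM. This is a log2 fold change of 0.21 (SE 0.06, edgeR adjusted p = 0.00281), or 1.16-fold (1.07 to 1.26). Of the 8 members searched, Spry2 was the only one besides Dusp1 and Dusp5 with any of the 5 motifs in the forms given. Its promoter is therefore shown with them in capitals.
Spry2 promoter (chr14:105896770-105897069): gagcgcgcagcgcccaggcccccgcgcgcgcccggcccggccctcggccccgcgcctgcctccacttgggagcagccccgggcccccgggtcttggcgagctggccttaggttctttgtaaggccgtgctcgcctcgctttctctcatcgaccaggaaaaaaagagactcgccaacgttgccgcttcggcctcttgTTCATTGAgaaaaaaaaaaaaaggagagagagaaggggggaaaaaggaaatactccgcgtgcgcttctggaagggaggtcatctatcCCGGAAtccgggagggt
A Capicua octamer, here on the opposite strand, begins 54 bases before the start and the ETS motif CCGGAA 33 bases after it. In the forms searched, 2.03% and 14.9% of all promoters held these motifs.

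Spry1 (ENSMUSG00000037211; chr3:37639947-37644599, plus strand), the paralog of Spry2 at nearly the same level in mock cells, did not pass the test. Mock libraries gave 60.9, 61.3 and 64.4 CPM and p140Cap libraries 59.8, 65.7 and 57.1 CPM. The p140Cap values fell on both sides of the mock range, with means of 62.2 ± 1.94 and 60.8 ± 4.39 CPM. The log2 fold change of -0.03 had a 95% interval of -0.15 to 0.09 (edgeR adjusted p = 0.659), and it became 0.01 without p140Cap replicate 3, so no direction is given.

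Spred1 (ENSMUSG00000027351; chr2:117121071-117182279, plus strand), which encodes a membrane-bound inhibitor that brings neurofibromin to RAS, was likewise not called. It had 237.5, 249.97 and 225 CPM in mock and 238, 232 and 229.5 CPM in p140Cap libraries. All p140Cap values fell inside the mock range, and the means were 238 ± 12.3 and 233 ± 4.18 CPM. The log2 fold change was -0.03 (95% interval -0.13 to 0.08, edgeR adjusted p = 0.627), turning to 0.0079 without mock replicate 2.

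Spred2 (ENSMUSG00000045671; chr11:19924442-20024026, plus strand), its paralog with the same function, was read at 89.5, 89.6 and 84.0 CPM in mock and at 94.3, 100.5 and 96.0 CPM in p140Cap cells. The groups did not overlap, and their means of 87.7 ± 3.18 and 96.9 ± 3.18 CPM lay further apart than either SD. Spred2 rose by 0.14 on the log2 scale (SE 0.05, edgeR adjusted p = 0.0164), with a 95% interval of 0.04 to 0.25. That call was lost without mock replicate 3 (adjusted p = 0.061), without p140Cap replicate 2 (0.0662) and with no filter on low counts (0.0754).

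Spry4 (ENSMUSG00000024427; chr18:38586247-38601347, minus strand), a Sprouty gene induced by ERK and by FGF signaling, showed the smallest called difference. It had 58.5, 59.1 and 56.5 CPM in mock and 62.9, 64.4 and 62.0 CPM in p140Cap libraries. The p140Cap libraries were all above the mock libraries, at 63.1 ± 1.23 against 58.0 ± 1.38 CPM. The log2 fold change was 0.12 (95% interval 0.02 to 0.23, edgeR adjusted p = 0.0385). The Spry4 call held in 5 of 13 alternative analyses. It was lost without mock replicate 1 (adjusted p = 0.0803), mock replicate 3 (0.0983), p140Cap replicate 1 (0.0916), p140Cap replicate 2 (0.108) or p140Cap replicate 3 (0.0654), with DESeq2 (0.0713), with no filter on low counts (0.193), and in 1 further analysis given with the other alternatives. By contrast, Dusp1, Dusp4, Dusp5, Dusp6, Etv5 and Spry2 were each called in 13 of 13.

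To set levels of different genes side by side, CPM was divided by the length of the canonical transcript (GENCODE), which gives RPKM, the CPM per kilobase of transcript. Dusp6 led with 336 ± 2.64 RPKM in mock and 490.8 ± 8.47 RPKM in p140Cap cells. Etv5 (152 ± 2.40 and 203 ± 7.22 RPKM) and Dusp4 (109 ± 4.09 and 159 ± 9.12 RPKM) followed. Spred1 came next at 37.5 ± 1.95 and 36.8 ± 0.659 RPKM, and then a close group of Spry1, Spry2 and Spred2, each between 18.25 and 23.04 RPKM on average in both groups. Within it, mock libraries of Spry2 and Spred2 overlapped, as did p140Cap libraries of Spry1 and Spry2, so those neighbours did not differ beyond their spread. Spry4 (12.2 and 13.3 RPKM), Dusp5 (4.26 and 6.61 RPKM) and Dusp1 (1.24 and 2.07 RPKM) were the lowest. The order of the 10 genes was the same in both groups. Except for Dusp4, each gene overlaps at least 1 other annotated gene, and since no source used here gives the strand setting of the counting, reads of such neighbours could not be told apart.

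**Figure D2:**
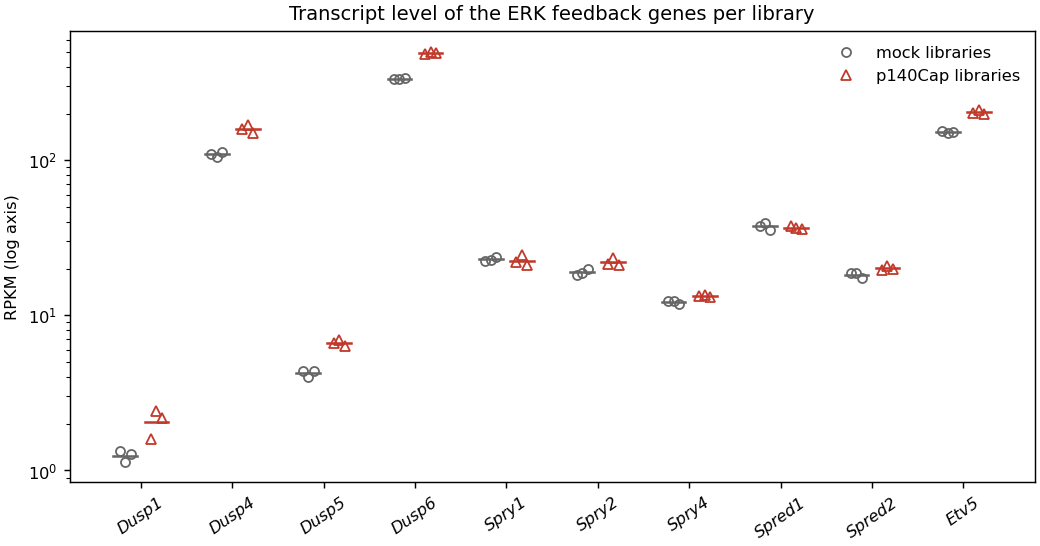
Transcript level of the 10 feedback genes (y axis, RPKM on a log axis) in each mock library (circles) and p140Cap library (triangles), with lines at the group means. Dusp6, Etv5 and Dusp4 stand above 100 RPKM and Dusp1 and Dusp5 below 10 RPKM in every library.

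Paralogs were then compared within each family, as the share of each gene in the family's summed reads per kilobase, a value that does not depend on the scaling of libraries. Among the 4 phosphatases, Dusp6 made up 74.6% ± 0.582 in mock and 74.6% ± 0.842 in p140Cap cells, and Dusp4 24.2% ± 0.537 and 24.1% ± 0.824 (SD, n = 3). Both shares overlapped between groups (exact permutation test, 2-sided, p = 0.9 and 0.8). Dusp1 took 0.276% and 0.313% (exact permutation p = 0.4) and Dusp5 0.945% and 1.01%, without overlap (exact permutation p = 0.1, the smallest this test can give for 3 against 3 libraries). The difference in share, p140Cap minus mock, was -0.14 percentage points for Dusp4 and 0.0428 for Dusp6. As single libraries were left out, it ranged from -0.485 to 0.316 for Dusp4 and from -0.413 to 0.417 for Dusp6, the ends being the values without p140Cap replicate 2 or 3, so neither has a settled sign.

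In the Sprouty family the share of Spry1 was 42.4%, 42.1% and 42.9% in mock and 39.1%, 39.6% and 38.2% in p140Cap libraries. Spry2 held 34.4%, 34.9% and 35.8% in mock and 37.6%, 38.4% and 38.2% in p140Cap libraries. Both shares were apart between groups, Spry1 lower by 3.5 and Spry2 higher by 3.01 percentage points, while Spry4 stayed at 22.5% and 23.0% with overlap (exact permutation p = 0.5). Spred1 held 67.3% ± 0.581 of its family in mock and 64.6% ± 1.00 in p140Cap cells, the rest being Spred2, again without overlap. For the 5 of 9 shares that did not overlap the exact permutation p was 0.1, or 0.18 after Benjamini-Hochberg adjustment over the 9, and with 3 against 3 libraries this permutation test cannot pass 0.05. The summed reads per kilobase of the 4 phosphatases over those of the 5 Sprouty and Spred genes, a ratio chosen after the values were seen and given without a test, was 4.14, 3.95 and 4.2 in mock and 5.72, 5.69 and 5.79 in p140Cap libraries.

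**Figure D3:**
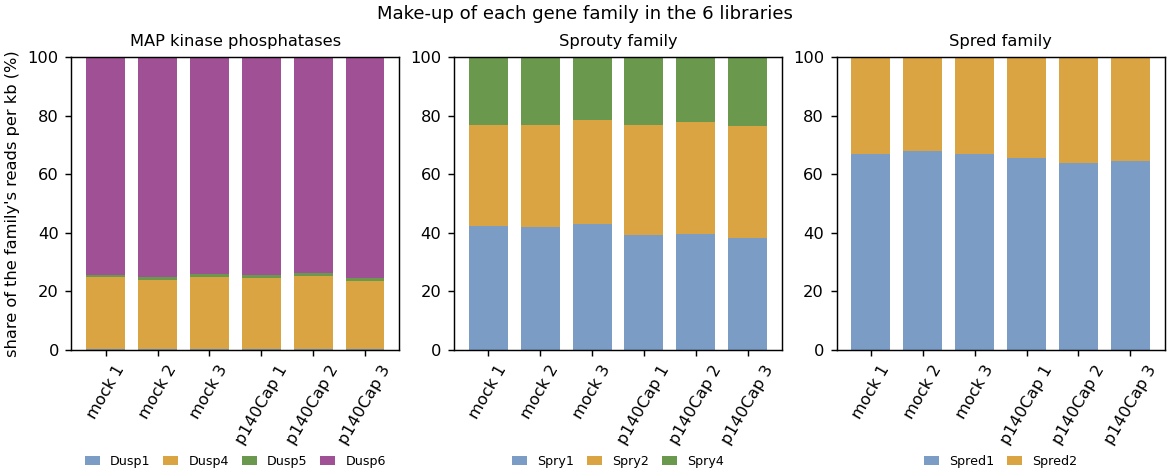
Share of each gene (y axis, % of the family's reads per kilobase) in the phosphatase, Sprouty and Spred families, with 1 bar per library. Dusp6 takes 73.8% to 75.5% of the phosphatase bars in the 6 libraries, while the Spry1 part is 42.1% to 42.9% in mock and 38.2% to 39.6% in p140Cap libraries.

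Other genes of the same families were read next. Of 8 further phosphatase and Sprouty or Spred genes, Spry3 had no row in the counts. Of the remaining 7, 5 had enough reads for the test. Of these 5, 3 rose, 0 fell and 2 were not called. Their median log2 fold change was 0.38, or 0.26 without p140Cap replicate 2 and 0.28 with no filter on low counts. The counts in this and each further list stand beside 71.1% called over all genes tested, 35.2% higher and 35.9% lower. Spred3, the remaining Spred gene, went from 15.5 ± 0.923 to 31.4 ± 1.27 CPM, a log2 fold change of 1.01 (SE 0.07, edgeR adjusted p = 1.52e-09) and so a higher estimate than for any of the 10 feedback genes, although its interval (0.86 to 1.15) overlaps that of Dusp1 (0.38 to 1.05). Dusp16, a phosphatase of JNK and p38, rose by 0.38 (adjusted p = 6.77e-06) and Dusp8, of the same group, by 0.23 (adjusted p = 0.0108, or 0.0573 without p140Cap replicate 3). Dusp2 had 0 reads in every library. Dusp9 had 2, 5 and 3 reads in mock and 0 in each p140Cap library, too few for a comparison at this depth.

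Among 13 further genes known to be switched on by ERK, 7 rose, 2 fell and 4 were not called. Their median log2 fold change was 0.32. Over all genes tested, 71.1% were called, 35.2% higher and 35.9% lower. The immediate early genes Fos, a subunit of AP-1, and Egr1, a zinc-finger factor, moved most, by 1.49 (SE 0.08, edgeR adjusted p = 6.94e-11) and 1.26 (SE 0.05, adjusted p = 3.86e-12) on the log2 scale. Fos had 7.44, 7.17 and 7.36 CPM in mock and 21.9, 20.2 and 19.5 CPM in p140Cap libraries, so the groups were far apart. Ier3, a survival factor, rose by 0.90, the cytokine gene Lif by 0.79, Phlda1 by 0.59, the FGF receptor inhibitor Il17rd by 0.52 and the ETS factor Etv1 by 0.32. Not all outputs of ERK went up. The ephrin receptor Epha4 fell by 0.75 and the immediate early gene Ier2 by 0.21 (edgeR adjusted p = 6.43e-07 and 0.01), the latter not called without p140Cap replicate 1 (adjusted p = 0.0714). Cyclin D1 (Ccnd1), at 1415 ± 21.8 and 1432 ± 12.6 CPM, had a log2 fold change of 0.02, Epha2 of -0.02, Etv4, the close relative of Etv5, of -0.04 and the AP-1 gene Fosl1 of -0.17. None of these 4 was called, and the sign of Ccnd1, Epha2 and Etv4 changed in other analyses. Fosl1 ranged from -0.416 to -0.032 over the 12 alternatives that tested it.

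**Figure D4:**
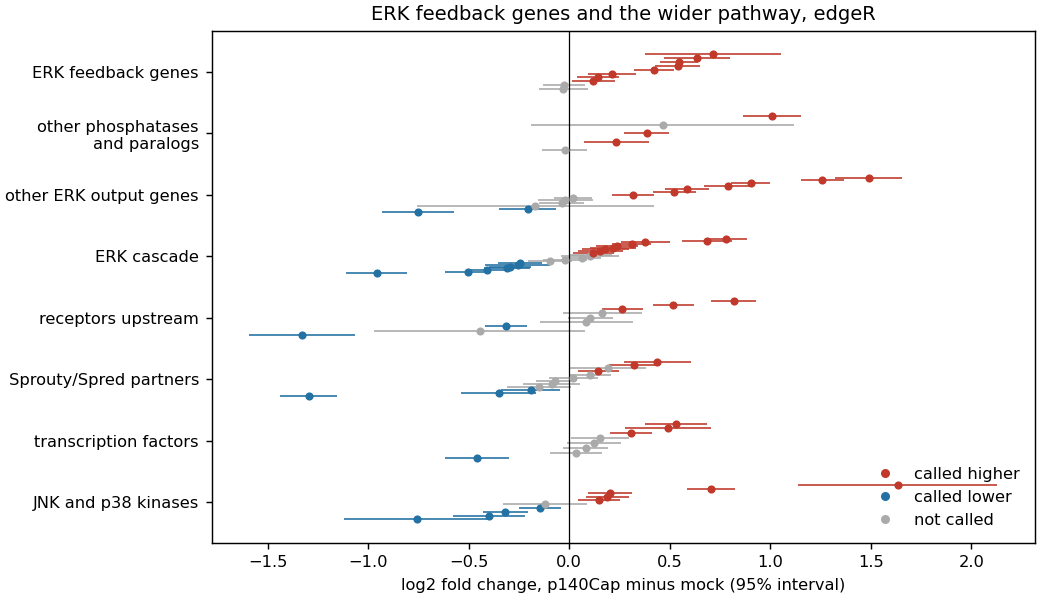
The log2 fold change of p140Cap against mock cells for each tested gene (x axis, points with 95% intervals from edgeR), by list (y axis). Feedback genes lie between -0.03 and 0.71 with none called lower, whereas the ERK cascade spans -0.96 to 0.78 and has calls in both directions.

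Genes of the ERK cascade itself moved in both directions. Of 21 tested, 9 rose, 7 fell and 5 were not called, with a median log2 fold change of 0.10. Mapk3, which encodes ERK1, rose by 0.78 and the adaptor gene Gab1 by 0.69 (edgeR adjusted p = 6.57e-10 and 2.19e-08). Hras fell by 0.96 and Nras by 0.24 on the log2 scale (edgeR adjusted p = 4.75e-09 and 0.00052). Hras fell from 60.5 ± 6.17 to 31.1 ± 0.629 CPM.

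Upstream of the cascade, 9 of 12 receptor tyrosine kinase genes were tested, of which 3 rose, 2 fell and 4 were not called. Their median log2 fold change was 0.10, but 0.16 without p140Cap replicate 1 and 0.05 without p140Cap replicate 2 or with no filter on low counts. Igf1r rose by 0.82, Fgfr1 by 0.52 and Erbb3, the partner of HER2, by 0.26 on the log2 scale, while Fgfr2 fell by 1.33 from a low level (edgeR adjusted p = 9.20e-10, 6.67e-08, 0.000123 and 7.04e-08). Met, the receptor of hepatocyte growth factor, fell by 0.32 on the log2 scale, from 193 ± 8.94 to 155 ± 3.85 CPM (edgeR adjusted p = 2.44e-05). Erbb2, the mouse gene for HER2, had 615 ± 26.2 CPM in mock and 661 ± 39.3 CPM in p140Cap cells, with a log2 fold change of 0.10 (95% interval -0.01 to 0.22, edgeR adjusted p = 0.0906), which was not called. Reads of the rat Neu transgene that aligned to this near-identical gene could not be told apart from its own. Erbb4 had 0 reads in every library, and Fgfr4 and Pdgfrb had 1 and 3 reads in all, each in a mock library.

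Of 12 genes that act with Sprouty and Spred proteins or restrain RAS beside them, 3 rose, 3 fell and 6 were not called. Their median log2 fold change of -0.02 was 0.0079 without mock replicate 1 and -0.06 without mock replicate 3, and has no settled sign. Cav1, the caveolin that binds Sprouty proteins, fell by 1.30, from 48.6 ± 2.17 to 19.8 ± 1.52 CPM (edgeR adjusted p = 6.41e-11). Nf1, the neurofibromin that Spred proteins bring to RAS, rose by 0.32, the MAP kinase-interacting kinase Mknk1 rose by 0.44 and the RAS GTPase activator Rasal2 fell by 0.35 (edgeR adjusted p = 0.000123, 0.000103 and 0.00191). Of 8 transcription factors that act on feedback genes, 3 rose, 1 fell and 4 were not called (median 0.14). The repressor Capicua (Cic) rose by 0.53 and Ets1 by 0.49, whereas serum response factor (Srf) fell by 0.46 (edgeR adjusted p = 6.35e-06, 0.000372 and 3.86e-05).

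Lastly, genes with the most similar pattern were named for the called members at either end, by the root mean square difference of log2 CPM centred over the 6 libraries. Nearest to Dusp1 were Rasl11b (0.0469), Nat8f1 (0.0681) and Syt11 (0.071), against a median of 0.424 over all other genes tested. Nearest to Spry4 were Qrich1 (0.012), Btbd3 (0.0131) and Cobll1 (0.0132), against a median of 0.196. With 6 libraries in 2 groups, this likeness rests mostly on the size of the group difference, and it says nothing of shared function or control.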

How the data were processed

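RNA-Seq of 3 mock and 3 p140Cap libraries of TuBo cells was used. Poly(A) selection is given in the labels and a stranded kit in the paper's methods. The authors deposited counts, that is, whole reads per gene and library for 21960 genes, not normalized. The submitters' processing notes name STAR 2.5, RSEM and the build mm10, with no role given, while the paper names GRCm39. For the annotation release and the strand setting of the counting, nothing is stated in the sources used here.

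Counts were analysed in R 4.3.3 with TMM factors, filterByExpr by group and the quasi-likelihood test of edgeR 4.0.16 on 11800 genes, with Benjamini-Hochberg adjustment over all of them and a threshold of 0.05. A fold change is p140Cap over mock, an SE is that of the log2 fold change, and intervals are 95% intervals of the same fit. Adjusted p-values in the text come from this test unless another is named. Alternatives were DESeq2 1.42.0, RLE factors, limma-voom (limma 3.58.1), no filter, a filter of 10 reads in each library, a replicate block, thinning of libraries to 1 total and leaving out each library. On counts simulated for this comparison (11729 genes run), the edgeR test recovered 95% of 100 genes changed by 0.5 on the log2 scale and 100% of 100 changed by 1, and 4.88% of its calls were unchanged genes. The common coefficient of biological variation was 4.57%. No library was a copy of another, since same-group pairs had a mean chi-square of 1.75 to 10.7 per gene. Positions and promoters are from RefSeq (GRCm38.p6), and transcript lengths and overlaps from GENCODE by Ensembl identifier.

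The members and lists were chosen with earlier results of these data known. Besides the members and Srcin1, the rule for named genes took up to 3 called genes of largest change per list, list genes at 0 reads in a whole group, and the 3 genes nearest in pattern to the called members with the highest and the lowest fold change. Lif, Phlda1, Il17rd, Etv1, Epha4, Ier2, Ccnd1, Epha2, Etv4, Fosl1, Nras, Erbb2, Erbb3, Met, Nf1 and Map2k7 were named outside it after their values were seen. Cell markers were outside this rule, and those at 0 reads in every library were named. Krt19, Col1a1, Cd68, Pecam1 and Pdgfra among the markers were also named after their values were seen.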

Additional observations from a re-analysis of the deposited data

How the results depend on the processing

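Under 13 alternatives, 6 to 8 of the 10 feedback genes were called, all higher, and 7851 to 8716 of all genes. Fold changes of members kept their direction and side of the threshold in 117 of 130 comparisons. A call was lost in 11, all of Spry4 or Spred2. Direction turned in 2, both of genes not called: over the libraries left out in turn, Spry1 ranged from -0.0895 to 0.0101 and Spred1 from -0.069 to 0.0079. Among other genes not called, Ccnd1 was -0.0127 with no filter, Etv4 0.0021 after thinning, and with libraries left out Epha2 ranged from -0.103 to 0.0199 and Etv4 from -0.0782 to 0.011. The cause was not tested. A replicate block gave 7 members called and 8034 genes; same-numbered libraries did not deviate together (r = -0.0299, -0.106 and -0.0573), so the numbers do not pair the samples. It lost the Spry4 call (adjusted p = 0.0706) and no other member's. Depth limits genes with few reads, such as Dusp1 (48 to 202 reads a library).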

Other observations

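Kinases of the JNK and p38 pathways, on which Dusp1, Dusp8 and Dusp16 also act, were read from a list of 10 genes, all of which had enough reads for the test. Of these, 5 rose, 4 fell and 1 was not called, with a median log2 fold change of 0.01. Over all genes tested, 35.2% were called higher and 35.9% lower. A second row of the counts also bears the symbol Map2k7 (ENSMUSG00000109061) and rose by 1.32 from a low level. It was left out, and the first row (ENSMUSG00000002948) was used; with both rows the median is 0.15. With the first row alone it was 0.0456 without p140Cap replicate 1, -0.0165 with no filter on low counts and -0.0021 after thinning, so it has no settled sign. Map2k6, an activator of p38, rose by 1.63 from a low level (SE 0.23, edgeR adjusted p = 9.46e-06), with 70, 32 and 25 reads in mock and 40, 26 and 48 reads in p140Cap libraries. Scaled to library size, every p140Cap library was above every mock library for Map2k6. Of the p38 genes themselves, Mapk13 rose by 0.71, from 55.6 ± 3.84 to 90.6 ± 2.77 CPM, and Mapk12 fell by 0.76, from 3.46 ± 0.415 to 2.00 ± 0.114 CPM (edgeR adjusted p = 9.61e-09 and 0.000806).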
